A study of Mus musculus with 22 samples.

Results

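Cytosolic ribosomal protein genes encode the proteins that, with ribosomal RNA, build the ribosomes of the cytoplasm. They were chosen by symbol alone: Rpl or Rps followed by a number, with an optional a, x or l, together with Rplp0, Rplp1, Rplp2 and Rpsa. The rule found 83 of the 54532 genes in the deposited table, 51 of the large subunit (Rpl and Rplp) and 32 of the small subunit (Rps and Rpsa). Of these, 80 are annotated as protein-coding, and Rpl6l, Rpl32l and Rps4l as processed pseudogenes.

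The large subunit joins amino acids and threads the new chain through an exit tunnel, and the small subunit binds the messenger and reads its codons. Cells make most of these proteins in equal amounts, and their messengers typically start with a run of pyrimidines through which nutrient and growth signals control how well they are translated. In macrophages and microglia, the resident macrophages of the brain, activation by bacterial products is known to change the synthesis of ribosomes and of proteins.

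RNA was sequenced from microglia of aged male C57BL/6J mice in 6 groups. GW mice had been injected daily for 10 days, from the age of 10 weeks, with 0.7 mg/kg of pyridostigmine bromide, a cholinesterase inhibitor, and 200 mg/kg of permethrin, an insecticide, and Ctrl mice with vehicle. All mice were then aged to 17.5 months. GW-CBD mice received 30 mg/kg of cannabidiol (CBD, a non-intoxicating compound of the hemp plant) daily for 28 days and then every 2 days for 2 weeks, and the GW and Ctrl groups received its vehicle. LPS groups were injected once with 0.33 mg/kg of lipopolysaccharide, a component of the outer wall of bacteria, and PBS groups with buffered saline, 24 hours before collection. The groups were GW-CBD-LPS with 4 libraries, GW-CBD-PBS with 3, GW-LPS with 3, GW-PBS with 4, Ctrl-LPS with 4 and Ctrl-PBS with 4. CBD was analysed here only in GW mice, so what it does in mice without the exposure could not be compared. The cells had been sorted as live CD45mid, CD11b+ and CD11a- cells, and since no label tells if a library is 1 mouse, the p-values here describe only how libraries vary.

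The start-site sequences of these genes are shown because the pyrimidine run at the start is the feature they are best known to share. In the RefSeq table for GRCm38.p6, 61 of the 83 genes had at least 1 annotated start. A window from 20 bases before to 20 bases after it, read in the sense of the messenger, was searched for 8 or more C or T in a row. Such a run was present in 30 of the 61 genes (49.2%), against 18.4% of 27025 genes in the same table. Capitals mark the longest such run in Rpl4, Rpl14, Rpl35, Rpl38 (whose window holds another one, left in lower case), Rps6 and Rps27, and Rplp0 and Rpl6 are given for contrast as genes with no such run in this window. In GRCm38.p6 the windows are chr9:64173367-64173406 (plus strand) for Rpl4, chr9:120571497-120571536 (plus) for Rpl14, chr2:39005112-39005151 (minus) for Rpl35, chr11:114668560-114668599 (plus) for Rpl38, chr4:86857348-86857387 (minus) for Rps6, chr3:90213629-90213668 (minus) for Rps27, chr5:115559447-115559486 (plus) for Rplp0 and chr5:121204481-121204520 (plus) for Rpl6.
Rpl4: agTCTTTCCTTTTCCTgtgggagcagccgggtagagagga
Rpl14: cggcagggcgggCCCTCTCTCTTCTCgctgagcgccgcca
Rpl35: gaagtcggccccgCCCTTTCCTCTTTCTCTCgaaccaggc
Rpl38: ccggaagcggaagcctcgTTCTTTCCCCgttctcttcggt
Rps6: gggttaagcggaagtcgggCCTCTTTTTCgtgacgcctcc
Rps27: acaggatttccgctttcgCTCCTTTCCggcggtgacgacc
Rplp0: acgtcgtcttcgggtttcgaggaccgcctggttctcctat
Rpl6: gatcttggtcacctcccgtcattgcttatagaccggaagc
The word CTTTCC, seen in Rpl4, Rpl35, Rpl38 and Rps27, occurred on either strand of 11 of the 73 annotated start sites of these genes (15.1%), against 3.68% of all 32851 start sites. The longer word CTCTTTC occurred in 7 of the 73 (9.59%), against 1.07% of all. CTTTCC and CTCTTTC can overlap the pyrimidine run they lie in.

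Libraries held 28676930 to 40458326 counts, of which these genes took 0.447% to 1.30%. The 10 microglial markers were detected in all libraries, with a summed level of 23315 to 53129 CPM (counts scaled to the library total), the lowest in Ctrl-LPS replicate 1. Neutrophil markers summed to 27539 CPM in Ctrl-PBS replicate 3, 2806 in Ctrl-LPS replicate 1 and 1683 in GW-PBS replicate 1, against at most 358 in the other 19 libraries. Values without these 3 are given for some results, not for all that differ. Erythroid markers ran from 70.7 to 1602 CPM, the highest in GW-PBS replicate 1, and the other marker lists are given in the closing section.

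Summed over all 83 genes and averaged by group, ribosomal protein messengers were most abundant in Ctrl-LPS and least abundant in GW-CBD-PBS. The sum was 6720, 5789, 6099 and 10643 CPM in GW-CBD-LPS replicates 1 to 4, and 4470, 5419 and 4791 CPM in GW-CBD-PBS replicates 2 to 4. It was 7894, 6355 and 8708 CPM in GW-LPS replicates 2 to 4, and 10898, 5454, 6723 and 6751 CPM in GW-PBS replicates 1 to 4. It was 12956, 7875, 8485 and 11320 CPM in Ctrl-LPS replicates 1 to 4, and 5299, 7112, 6500 and 5930 CPM in Ctrl-PBS replicates 1 to 4. Every Ctrl-LPS library was above every Ctrl-PBS library and every GW-CBD-LPS library above every GW-CBD-PBS library, while GW-LPS and GW-PBS overlapped. In bulk RNA, fewer cells of a type and less RNA per cell cannot be told apart.

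**Figure D1:**
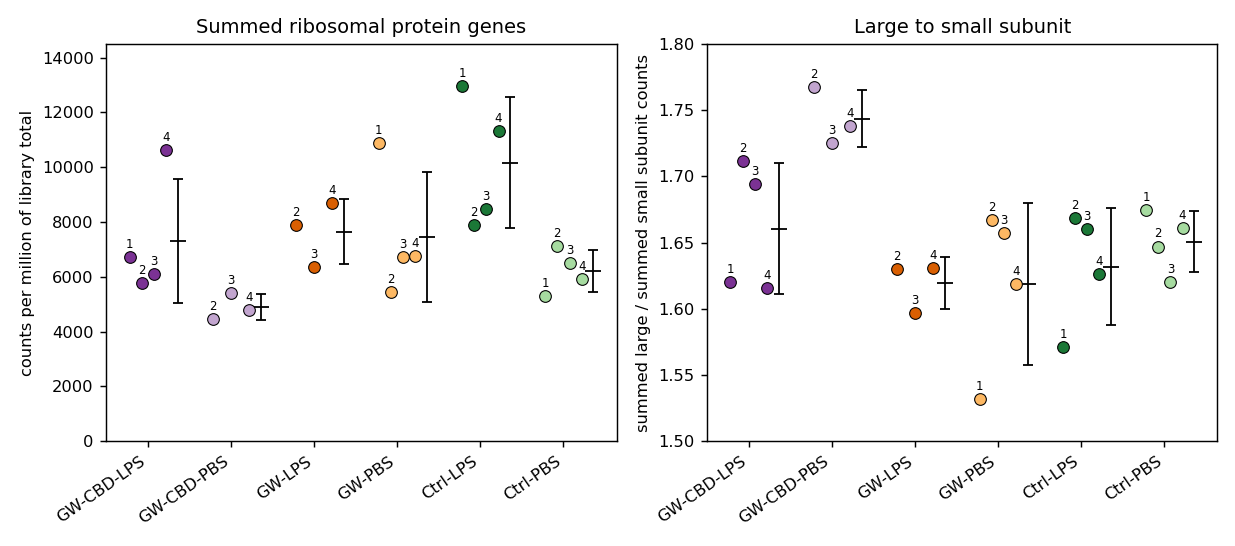
Left, summed CPM of the 83 ribosomal protein genes. Right, the ratio of summed large to summed small subunit counts. Points are libraries with their replicate number, bars are the group mean and SD. GW-CBD-PBS has the lowest mean on the left (libraries at 4470 to 5419 CPM), though Ctrl-PBS replicate 1, at 5299 CPM, lies within its range. On the right it lies above all other libraries (1.725 to 1.768).

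Single libraries stood apart from their group, and they did so across nearly all of these genes at once. Of the 80 genes that passed the filter on low counts, 77 were highest in GW-CBD-LPS replicate 4 within GW-CBD-LPS. Within GW-PBS, 77 were highest in replicate 1 and 74 lowest in replicate 2, and within Ctrl-LPS, 75 were highest in replicate 1. The other groups had the same feature, with 70 highest in GW-CBD-PBS replicate 3, 67 highest in GW-LPS replicate 4, 73 lowest in GW-LPS replicate 3 and 74 lowest in Ctrl-PBS replicate 1. GW-PBS replicate 1 and Ctrl-LPS replicate 1 are 2 of the 3 libraries with raised neutrophil markers, and GW-PBS replicate 1 also had the highest erythroid marker sum. Mitochondrially encoded messengers were at 2291 CPM in GW-PBS replicate 1, the highest of 22 libraries, against 939 CPM in GW-PBS replicate 2, the lowest. The part of these markers in the results was not tested.

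**Figure D2:**
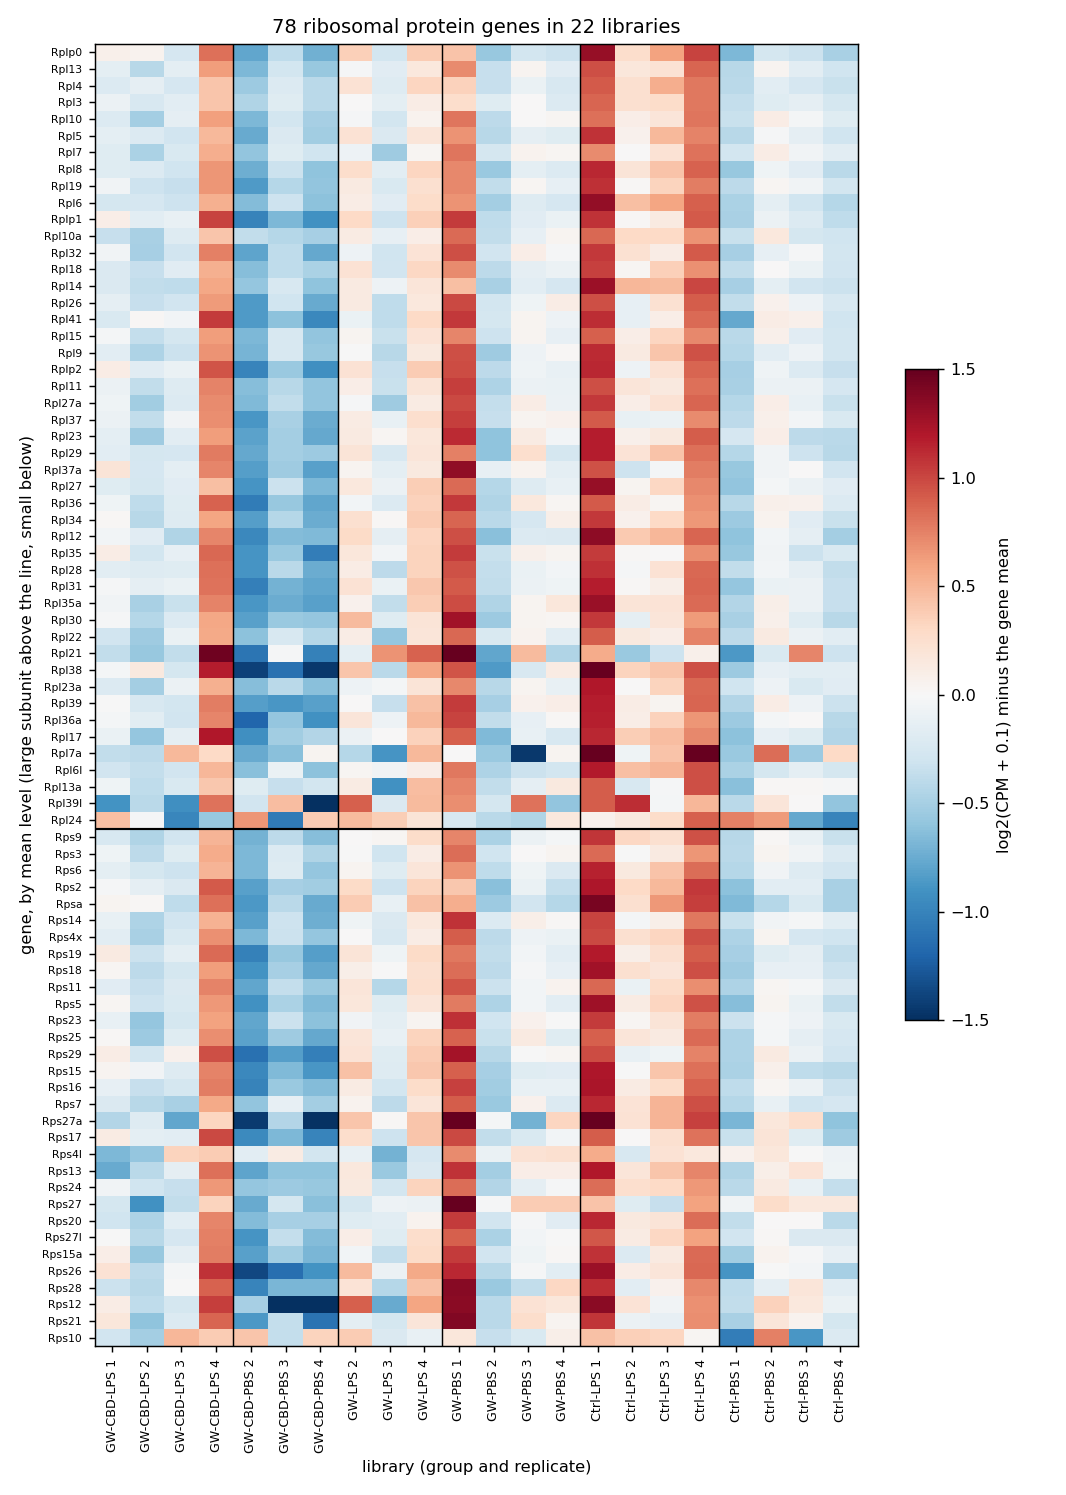
Each row is 1 of 78 ribosomal protein genes, each column 1 of 22 libraries, and colour is log2(CPM + 0.1) minus the gene's mean, cut at ±1.5. Whole columns turn red or blue together, with GW-CBD-LPS 4, GW-PBS 1, Ctrl-LPS 1 and Ctrl-LPS 4 high and the GW-CBD-PBS columns low.

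Levels differed widely between members even though their proteins are used in near-equal numbers. Per kilobase of the transcript chosen for each gene, Rpl13 had the highest mean level over the 22 libraries (546.5 CPM per kb). Rplp0 (352.3), Rps9 (277.1) and Rpl3 (259.4) were also among the 5 highest. The lowest tested genes were Rpl24 (0.43 CPM per kb), Rpl39l (0.74), Rps10 (2.42), Rpl13a (5.13) and Rps15a (5.71). Rps15a averaged 29.56 CPM, and its low value per kilobase comes from a chosen transcript of 5179 bases, against a median of 878. Low values such as these have a limit, because 47% of the exon bases of Rpl24 and 35.4% of those of Rpl13a lie in another annotated gene of the same strand, as do 20.6% of those of Rps10, so the share of reads assigned to each is uncertain. Near-identical copies add to this, since 80 of the 83 genes share a 50-base word with at least 1 annotated pseudogene, with a median of 8 and up to 119 for Rpl7a. Rps27 is the extreme named here, with 98% of its 150-base windows found in another gene, whereas Rps3, Rps15, Rpl39 and Rps27l had none. Among the 77 genes with a mean of at least 100 counts, the highest library exceeded the lowest by 2.52-fold to 12.4-fold, with a median of 3.86-fold, and Rps12 had the widest range.

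Of the paralogue genes, Rps27l alone had more than traces of reads. Rpl3l, a muscle form of Rpl3, had 0 to 10 counts per library, and Rpl10l, a testis form of Rpl10, had 0 in all libraries, which allows up to 3 counts in each. The pseudogene Rpl32l had 0 to 5 counts, and none of the 3 passed the filter. Rpl39l, a testis form of Rpl39, had 1 to 44 counts per library. Rps27l, a p53 target in human and mouse cells, had 69.84 CPM per kb against 111.2 for Rps27.

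LPS in Ctrl mice, the comparison of Ctrl-LPS with Ctrl-PBS, was the contrast in which ribosomal protein genes passed the test. In edgeR's quasi-likelihood test with Benjamini-Hochberg adjustment over 16554 genes, 46 of 80 were called higher at an adjusted p under 0.05 and 0 lower, against 10.8% of all genes called higher and 9.62% called lower. The log2 fold change was positive in 80 of 80, with a median of 0.80 against −0.02 over all genes tested. Ctrl-LPS and Ctrl-PBS libraries did not overlap in 45 of the 80, all higher, against 12.2% of all genes higher and 10.8% lower. Other fits called 36 higher with RLE size factors (9.49% of all genes), 41 with no filter (4.52%), 50 with DESeq2 (11.3%), 69 with limma voom and quality weights (15.4%), 36 with a replicate block (9.9%) and 50 with these groups alone (9.6%), and 0 lower in each. The rise covered 30 of 48 large subunit genes (median 0.82) and 16 of 32 small subunit genes (median 0.75).

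Rplp0, the stem of the stalk that binds the elongation factors, led the stalk genes. It had 1087, 529.3, 671.3 and 886.7 CPM in Ctrl-LPS replicates 1 to 4, against 276.1, 367.6, 352.3 and 315.1 CPM in Ctrl-PBS replicates 1 to 4. Every Ctrl-LPS value was above every Ctrl-PBS value, and the log2 fold change was 1.28 ± 0.25 (SE, edgeR adjusted p = 0.0011). The other stalk genes also passed. Rpl12, at the stalk's base, had a log2 fold change of 1.13 ± 0.30 (edgeR adjusted p = 0.0104). Rplp1 and Rplp2, the acidic proteins at its tip, had 0.89 ± 0.31 and 0.89 ± 0.30 (edgeR adjusted p = 0.0449 and 0.0427). Both lost the call under 9 alternatives, among them the fit without Ctrl-LPS replicate 1.

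Rpl5 and Rpl11 bind the 5S ribosomal RNA and, when free, hold back Mdm2, the ubiquitin ligase of p53. Rpl5 had 333.4, 163.9, 220.5 and 262.9 CPM in Ctrl-LPS and 118.2, 154.7, 143.3 and 128.1 CPM in Ctrl-PBS, with no overlap, a log2 fold change of 0.85 ± 0.23 and an edgeR adjusted p of 0.0135. Rpl11 averaged 80.6 ± 23.6 CPM in Ctrl-LPS and 46.3 ± 5.67 CPM in Ctrl-PBS (SD, n = 4 each), with a log2 fold change of 0.80 ± 0.28 (edgeR adjusted p = 0.0495). Rpl5 lost its call only without Ctrl-LPS replicate 1, among the alternatives run, whereas Rpl11 lost it under 10 of them.

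Of the 8 exit tunnel genes 5 were called. Rpl4, whose extended loop lines the tunnel, had the smallest p of all members. It had 638.5, 398.2, 494.4 and 584.2 CPM in Ctrl-LPS against 255.5, 303.7, 282.8 and 267.7 CPM in Ctrl-PBS. The lowest Ctrl-LPS library was above the highest Ctrl-PBS library, and the log2 fold change was 0.93 ± 0.18 (edgeR adjusted p = 0.000839). Rpl35, at the tunnel's outlet, had 0.79 ± 0.29 and did not pass (edgeR adjusted p = 0.055), nor did Rpl39 at 0.80 ± 0.31 (edgeR adjusted p = 0.0698).

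Other large subunit proteins followed. Rpl3, which lies near the peptidyl transferase centre, had 624.6, 399.8, 412 and 588 CPM in Ctrl-LPS against 265.3, 300.3, 309.3 and 284 CPM in Ctrl-PBS, with a log2 fold change of 0.81 ± 0.16 (edgeR adjusted p = 0.00126). Rpl14 had 224.9, 130.7, 128.8 and 186 CPM in Ctrl-LPS against 65.4, 83.43, 76.07 and 74.1 CPM in Ctrl-PBS (1.16 ± 0.23, edgeR adjusted p = 0.000963). Rpl6, which contacts Rpl14 on the outer face of the subunit, had 293, 160.7, 176.6 and 218.1 CPM in Ctrl-LPS against 84.25, 106.1, 94.97 and 87.21 CPM in Ctrl-PBS (1.19 ± 0.24, edgeR adjusted p = 0.00129). In all 3 genes the groups did not overlap, and Ctrl-LPS replicate 1 was the highest library. Rpl10, needed for the final maturation of the large subunit, had 0.62 ± 0.24 and did not pass (edgeR adjusted p = 0.0778).

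In the small subunit, Rpsa, also known as the laminin receptor, had 419.6, 184.2, 244.5 and 320 CPM in Ctrl-LPS against 98.63, 116.6, 133.4 and 111.4 CPM in Ctrl-PBS. The groups did not overlap, and the log2 fold change was 1.34 ± 0.27 (edgeR adjusted p = 0.00144). Rps6, the substrate of S6 kinase, averaged 297.4 ± 91.4 CPM in Ctrl-LPS and 155.7 ± 17.1 CPM in Ctrl-PBS (SD, n = 4 each), with 0.93 ± 0.23 (edgeR adjusted p = 0.0072). Rps19, mutated in Diamond-Blackfan anaemia, had 0.97 ± 0.27 (edgeR adjusted p = 0.0152) and lost its call without Ctrl-LPS replicate 1. Of 4 genes at the messenger entry and decoding face, Rps2 and Rps15 were called, and Rps3 had 0.60 ± 0.24 (edgeR adjusted p = 0.0784).

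A few genes had log2 fold changes near 0. Rps27 had 48.2, 31.62, 28.27 and 54.29 CPM in Ctrl-LPS against 34.57, 43.26, 40.01 and 39.87 CPM in Ctrl-PBS, with overlap and a log2 fold change of 0.04 ± 0.28 (edgeR adjusted p = 0.938). Rpl21, of the large subunit, had 0.05 ± 0.56 (edgeR adjusted p = 0.964), and the pseudogene Rps4l had 0.16 ± 0.23 (edgeR adjusted p = 0.661). Other genes had fold changes like those of called genes and did not pass. Rps27a, made as a fusion with ubiquitin, had 1.09 ± 0.40 (edgeR adjusted p = 0.0575). Rps27l had 0.70 ± 0.26 (edgeR adjusted p = 0.066), its groups not overlapping, and Rpl39l 0.98 ± 0.64 (edgeR adjusted p = 0.303).

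How many members passed rested on single libraries, while the median did not turn sign. Of 80 genes, 11 were called higher without Ctrl-LPS replicate 1 (7.15% of all genes), 20 without Ctrl-LPS replicate 4 (8.63%), 19 without Ctrl-PBS replicate 1 (8.02%), 27 without Ctrl-PBS replicate 3 (8.65%), 21 without Ctrl-PBS replicate 4 (7.91%) and 19 without all 3 neutrophil-marked libraries (7.11%), with medians of 0.62 to 0.94 when 1 library was left out. Leaving out Ctrl-LPS replicate 2 or 3 or Ctrl-PBS replicate 2 gave 59 (11.6%), 48 (9.05%) or 39 (9.27%). With all libraries, 9.62% of all genes were called lower in this contrast and 10.8% higher. Of 10 microglial markers 6 fell (median −0.65). Of 12 neutrophil markers 2 fell, their sum running from 21.8 to 2806 CPM in Ctrl-LPS and from 24.6 to 27539 CPM in Ctrl-PBS. Of 8 erythroid markers 5 fell (median −2.07), their sum running from 85.3 to 391.5 CPM in Ctrl-LPS and from 297.2 to 1370 CPM in Ctrl-PBS. Of B cell markers 2 of 6 fell, and of border-associated macrophage markers 2 of 7 rose (Lyve1 and Cbr2). The monocyte marker Ccr2, the NK cell marker Nkg7 and the endothelial marker Pecam1 fell as well, and the part of these markers in the result was not tested.

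LPS in GW mice, the comparison of GW-LPS with GW-PBS, gave no call in these genes. By edgeR, 0 of 80 genes were called, against 4.45% of all genes called higher and 5.07% lower. Of the 80, 2 had an unadjusted p under 0.05, against 4019 of all 16554 genes. DESeq2 called 1 lower (7.79% of all genes), and limma voom with quality weights called 5 higher (10.9%) and 1 lower (12.1%). Leaving out the 3 neutrophil-marked libraries gave 1 call, higher (2.9% of all genes), and leaving out GW-PBS replicate 2 gave 1, lower (6.61%). The median log2 fold change was −0.12 and 25 of 80 were positive. The sign rested on single libraries: the median was 0.23 without GW-PBS replicate 1 and 0.01 without GW-LPS replicate 3. Erythroid markers summed to 77.5 to 150 CPM in GW-LPS and 274 to 1602 CPM in GW-PBS, and 6 of 8 fell (median −3.07). In the same contrast 5 of 10 microglial markers fell (median −0.49), of 7 border-associated macrophage markers 3 rose and 1 fell, and 2 of 6 B cell, 2 of 6 endothelial, 1 of 6 oligodendrocyte and 1 of 6 neuronal markers fell. The part of these markers in the result was not tested.

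Rps27 and Rps4l were the 2 genes with an unadjusted p under 0.05, both lower. Rps27 had 29.8, 33.91 and 33.56 CPM in GW-LPS replicates 2 to 4, against 102.4, 35.3, 46.61 and 46.57 CPM in GW-PBS replicates 1 to 4. The groups did not overlap, by a small gap to GW-PBS replicate 2, and the log2 fold change was −0.83 ± 0.31 (edgeR adjusted p = 0.0976). Rps4l had 41.17, 27.11 and 37.21 CPM in GW-LPS against 72.88, 41.38, 51.51 and 52.34 CPM in GW-PBS (−0.63 ± 0.25, edgeR adjusted p = 0.119). With Rpl24, at 3 to 20 counts per library and higher in GW-LPS, these were the 3 of 80 genes whose groups did not overlap, against 9.22% of all genes higher and 10.4% lower.

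Whether the LPS response of these genes differed between GW and Ctrl mice was tested directly as an interaction. The interaction term was negative in 79 of 80 genes with a median of −0.93. By edgeR 61 of 80 had an unadjusted p under 0.05, against 2099 of all 16554 genes. After adjustment 0 of 80 passed, with a smallest edgeR adjusted p of 0.35, and 0 of 16554 genes passed in this contrast (0%). DESeq2 and voom also called 0. Rpl3 had the smallest p, with an interaction of −0.79 ± 0.24, followed by Rpl6 at −1.11 ± 0.35 and Rpl14 at −1.01 ± 0.33 (edgeR adjusted p = 0.35, 0.353 and 0.353). Leaving out GW-PBS replicate 1 gave a median of −0.58, and leaving out all 3 neutrophil-marked libraries −0.43. It was −0.33 with the trend over transcript length taken out.

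GW-LPS against Ctrl-LPS, the exposure compared under LPS, had a lower level in 79 of 80 genes (median −0.56). The edgeR test called 0 (0% of all genes), with 29 at an unadjusted p under 0.05, against 2266 of all 16554 genes. DESeq2 called 0 and voom 2 lower (1.47% of all genes). In 14 of 80 genes the groups did not overlap, all lower, against 6.25% of all genes lower and 6.29% higher. Rpl3 had 341.7, 306.7 and 367.5 CPM in GW-LPS against 624.6, 399.8, 412 and 588 CPM in Ctrl-LPS (−0.58 ± 0.18, edgeR adjusted p = 0.28). Rpl14 had 101.8, 87.99 and 105.4 CPM in GW-LPS against 224.9, 130.7, 128.8 and 186 CPM in Ctrl-LPS (−0.77 ± 0.24, edgeR adjusted p = 0.302). Rpl6 had 126.7, 104.1 and 141.8 CPM in GW-LPS against 293, 160.7, 176.6 and 218.1 CPM in Ctrl-LPS (−0.77 ± 0.26, edgeR adjusted p = 0.31). In these 3 genes each GW-LPS library was below each Ctrl-LPS library, and without Ctrl-LPS replicate 1 the median over the 80 genes was −0.36. With the length trend taken out it was −0.19.

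GW-PBS against Ctrl-PBS, the exposure alone, had a higher level in 78 of 80 genes (median 0.40). No gene passed in edgeR (0% of all genes), and DESeq2 and voom called 0. By edgeR 0 of 80 had an unadjusted p under 0.05, against 621 of all 16554 genes. Groups overlapped in all 80, while 1.1% of all genes were higher and 0.967% lower without overlap. Rpl35 had 72.97, 27.93, 37.15 and 36.37 CPM in GW-PBS against 23.64, 34.07, 28.24 and 30.06 CPM in Ctrl-PBS (0.59 ± 0.29, edgeR adjusted p = 1). Rpl37a had 0.64 ± 0.31 and Rps27 0.55 ± 0.28 (edgeR adjusted p = 1 each). Without GW-PBS replicate 1 the median was 0.04.

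LPS in GW mice given CBD, the comparison of GW-CBD-LPS with GW-CBD-PBS, again had higher levels, in 78 of 80 genes (median 0.68 against 0.00 over all genes tested). By edgeR 0 of 80 passed, against 0.393% of all genes called higher and 0.0242% lower. Of the 80, 43 had an unadjusted p under 0.05, against 1821 of all 16554 genes. DESeq2 called 12 higher (1.79% of all genes) and voom 57 (12.5%). In 39 of 80 genes the groups did not overlap, all higher, against 8.37% of all genes higher and 5.79% lower. With no filter 1 was called higher (0.316% of all genes), without the 3 neutrophil-marked libraries 4 (0.867%) and 1 without GW-CBD-LPS replicate 3 (1.2%). None of the 3 neutrophil-marked libraries belongs to either group, so they enter this contrast only through the filter, scaling and spread shared by the fit. Without GW-CBD-LPS replicate 4 the median was 0.37.

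Rpl38, which in mouse embryos is needed to translate a subset of Hox messengers, had the smallest p. It had 15.34, 17.34, 13.03 and 35.55 CPM in GW-CBD-LPS replicates 1 to 4, against 5.874, 7.141 and 5.67 CPM in GW-CBD-PBS replicates 2 to 4. All GW-CBD-LPS libraries were above all GW-CBD-PBS libraries, replicate 4 by the widest gap, with a log2 fold change of 1.70 ± 0.41 (edgeR adjusted p = 0.0679). Rps26, at the messenger exit channel, had 27.46, 18.02, 23.12 and 50.27 CPM in GW-CBD-LPS against 9.074, 10.71 and 12.61 CPM in GW-CBD-PBS (1.46 ± 0.39, edgeR adjusted p = 0.118). Rps29, a small zinc-binding protein of the head of the small subunit, had 67.89, 51.68, 65.68 and 122.5 CPM in GW-CBD-LPS against 28.87, 35.36 and 30.63 CPM in GW-CBD-PBS (1.28 ± 0.36, edgeR adjusted p = 0.14). These 3 genes did not overlap between the groups.

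GW-CBD-PBS against GW-PBS, CBD without LPS, had lower levels in 78 of 80 genes (median −0.80 against −0.03 over all genes tested). By edgeR 0 passed (0% of all genes), and the smallest adjusted p was 0.524. Of the 80, 63 had an unadjusted p under 0.05, against 1569 of all 16554 genes. DESeq2 called 0 and voom 20 lower (0.906% of all genes). In 41 of 80 genes the groups did not overlap, all lower, against 5% of all genes lower and 3.18% higher. Rps27 had 21.2, 29.69 and 23.14 CPM in GW-CBD-PBS against 102.4, 35.3, 46.61 and 46.57 CPM in GW-PBS (−1.23 ± 0.32, edgeR adjusted p = 0.524). Rps29 had 28.87, 35.36 and 30.63 CPM in GW-CBD-PBS against 148.4, 46.81, 62.58 and 64.04 CPM in GW-PBS (−1.35 ± 0.36, edgeR adjusted p = 0.524). Rpl38 had 5.874, 7.141 and 5.67 CPM in GW-CBD-PBS against 30.1, 8.663, 13.21 and 17.05 CPM in GW-PBS (−1.47 ± 0.40, edgeR adjusted p = 0.524). All 3 stayed below every GW-PBS library, and the median over the 80 genes was −0.45 without GW-PBS replicate 1.

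GW-CBD-LPS against GW-LPS, CBD under LPS, had a median of 0.02, with 45 of 80 genes positive. By edgeR 0 passed, against 1.06% of all genes called higher and 1.24% lower. Of the 80, 0 had an unadjusted p under 0.05, against 2383 of all 16554 genes. DESeq2 called 0 and voom 12 lower (10% of all genes). Groups overlapped in all 80, while 6.51% of all genes were higher and 6.34% lower without overlap. The median was −0.27 without GW-CBD-LPS replicate 4 and −0.10 without GW-LPS replicate 3. Rps27a (−0.51 ± 0.42, edgeR adjusted p = 0.665) and Rps4l (0.29 ± 0.25, edgeR adjusted p = 0.681) were among the 3 genes with the smallest p.

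The interaction of CBD and LPS in GW mice was positive in 77 of 80 genes (median 0.82). By edgeR 0 passed, against 0.0121% of all genes called higher and 0.00604% lower. Of the 80, 30 had an unadjusted p under 0.05, against 2540 of all 16554 genes. DESeq2 called 0 and voom 6 higher (7.74% of all genes). Rps29 had an interaction of 1.49 ± 0.49 (edgeR adjusted p = 0.197), Rpl38 1.59 ± 0.56 and Rpl41 1.43 ± 0.50 (edgeR adjusted p = 0.212 each). Rpl41, which codes for a very short and basic peptide of the large subunit, had 69.43, 82.44, 79.22 and 168.4 CPM in GW-CBD-LPS and 44.94, 52.99 and 41.51 CPM in GW-CBD-PBS, and it had 76.1, 62.43 and 100.1 CPM in GW-LPS and 170, 67.57, 83.4 and 76.87 CPM in GW-PBS. The median was 0.48 without GW-PBS replicate 1, 0.53 without GW-CBD-LPS replicate 4 and 0.19 with the length trend taken out. The contrasts share libraries, GW-PBS entering 5 of the 9, so their medians are not separate measurements.

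**Figure D3:**
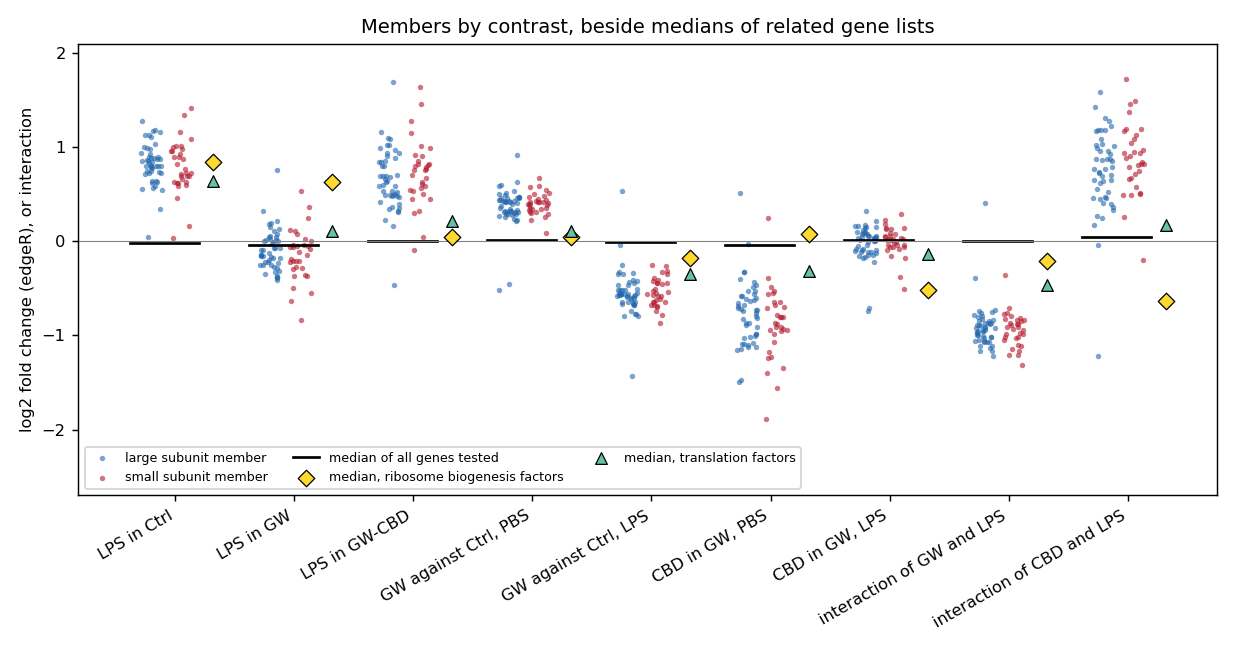
Log2 fold changes, or interaction terms, of the 80 ribosomal protein genes in 9 contrasts, with black bars for the median of all 16554 genes and markers for the medians of 2 related gene lists. All points lie above 0 for LPS in Ctrl (median 0.80) and 78 of 80 for LPS in GW-CBD (0.68), while they lie around 0 for LPS in GW (−0.12).

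Large and small subunit genes had medians of the same sign in every contrast, and these lay furthest apart for CBD without LPS (log2 fold change −0.73 for large and −0.87 for small). The ratio of summed large to summed small subunit counts averaged 1.66 ± 0.0495 in GW-CBD-LPS, 1.744 ± 0.0217 in GW-CBD-PBS, 1.619 ± 0.0194 in GW-LPS, 1.619 ± 0.0615 in GW-PBS, 1.632 ± 0.0443 in Ctrl-LPS and 1.651 ± 0.0232 in Ctrl-PBS (SD, n = 3 or 4). GW-CBD-PBS, at 1.768, 1.725 and 1.738, was above every other library, the next being GW-CBD-LPS replicate 2 at 1.711. GW-PBS replicate 1 was the lowest at 1.532, followed by Ctrl-LPS replicate 1 at 1.571. The GW-CBD-PBS libraries had sums of 4470 to 5419 CPM, and the 2 libraries with the lowest ratios had sums of 10898 and 12956 CPM. The log2 difference of the ratio between GW-CBD-PBS and GW-PBS was 0.11, and for LPS in Ctrl it was −0.02. The sign for LPS in Ctrl turned with the definition, being 0.03 as the mean log2 CPM of large minus small subunit genes and −0.06 without the highest gene of each subunit. No test was made, because the ratio is a score over chosen genes.

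Transcript length went along with the size of some differences. The transcript chosen for each tested gene had a median of 896 bases in the large and 827 bases in the small subunit. It ran from 345 bases in Rps27 to 5179 bases in Rps15a. Across the 80 genes, which share libraries and are not independent, Spearman's rho between length and log2 fold change was 0.50 for CBD without LPS, −0.44 for the interaction of CBD and LPS, −0.35 for LPS in GW-CBD and 0.13 for LPS in Ctrl. Other genes of like length had medians of the same sign in the classes under 2000 bases, but not in all of the longer ones, which hold 5 of the ribosomal protein genes compared. For CBD without LPS, the 9 ribosomal protein genes under 500 bases had a median of −1.12 and the 22 of 1000 to under 2000 bases −0.68, against −0.87 and −0.23 for the 40 and 1740 other genes of those classes at 10 CPM or more. For LPS in GW-CBD, the same classes had 0.999 and 0.657 in ribosomal protein genes, against 0.631 and 0.127 in other genes. For LPS in Ctrl they had 0.697 and 0.88, against 0.335 and 0.24. From 2000 to under 4000 bases, the 4 ribosomal protein genes had −0.60 and the 3409 other genes 0.06 for CBD without LPS, and 0.49 against −0.01 for LPS in GW-CBD.

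With the trend over length taken out of each library, an alternative chosen after seeing the data, the median of LPS in Ctrl was 0.50 and 54 genes were called higher (10.6% of all genes), with 1 lower, Rps27 (13.8%). That of LPS in GW-CBD was 0.32 with 9 called higher (0.913%), and that of CBD without LPS was −0.34 with 0 called. For LPS in GW 7 were then called higher (5.76%) and 1 lower (6.92%), and for CBD under LPS 1 lower (2.04%). What lies behind the trend over length was not tested.

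**Figure D4:**
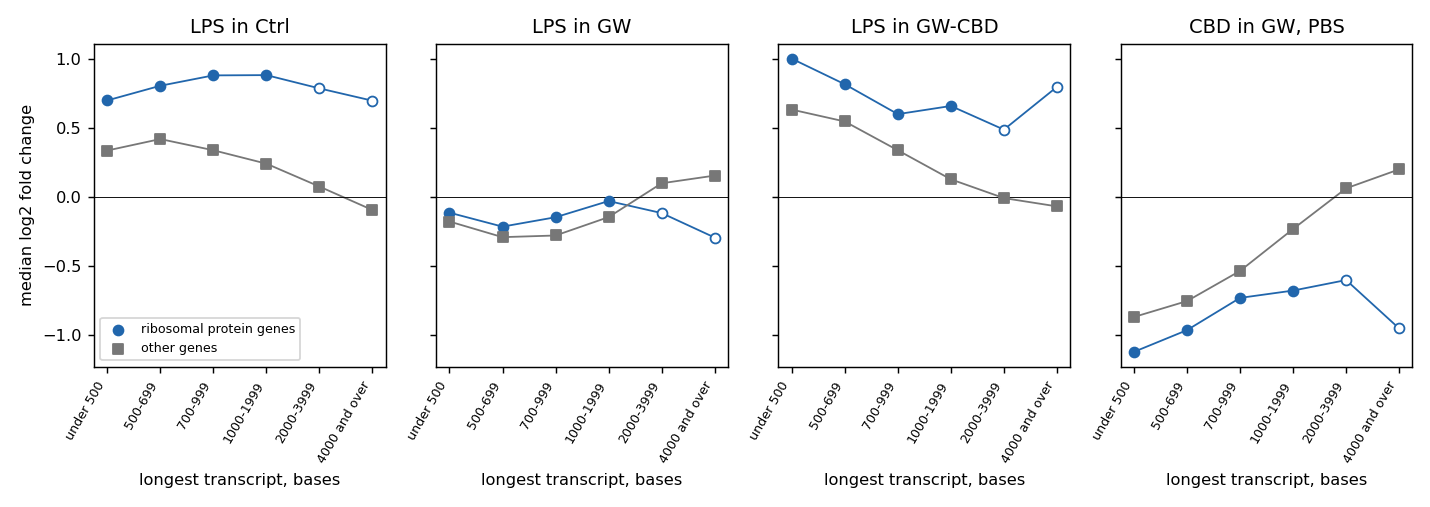
Median log2 fold change by length of the transcript chosen for each gene (labelled longest transcript on the axis), in 4 contrasts. Circles are ribosomal protein genes (open where fewer than 5 genes), and squares other genes at 10 CPM or more. For CBD in GW, PBS both curves are lowest in the class under 500 bases (−1.12 and −0.868), and in LPS in Ctrl ribosomal protein genes stay above the others in every class.

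Genes with and without a run of 8 or more C or T in the start-site window were set side by side, with no test. The run could lie anywhere in the window, and in Rpl4 it lies before the annotated start. Shorter runs were not counted, so the split depends on this cutoff and on the annotated start. It does not tell which messengers begin with pyrimidines. For LPS in Ctrl, the 29 tested genes with a run had a median of 0.80 and the 29 without one 0.86. The medians were −0.06 with and −0.19 without a run for LPS in GW, and 0.66 with and 0.68 without for LPS in GW-CBD. Both kinds are represented among the genes printed above. Rpl4, Rpl14 and Rps6, with such a run in the window, and Rplp0 and Rpl6, with none, were all called for LPS in Ctrl. Rpl35 and Rps27, also printed with a run, were not called.

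Ribosomal proteins that the symbol rule does not reach were measured too. For LPS in Ctrl 3 of 7 were called higher (median 0.76), against 10.8% of all genes. Rack1, the signalling scaffold on the head of the small subunit, averaged 302.8 ± 97.4 CPM in Ctrl-LPS and 124.8 ± 15.6 CPM in Ctrl-PBS (SD, n = 4 each), with 1.28 ± 0.24 (edgeR adjusted p = 0.000777). Rps3a1, a protein of the small subunit, was also called. In the other 8 contrasts edgeR called 0 of the 7. At an unadjusted p under 0.05 were 5 of 7 for the interaction of GW and LPS, against 2099 of all 16554 genes. There were 4 for GW against Ctrl under LPS (2266 of all genes) and 3 for CBD under PBS (1569). The remaining contrasts had 0 or 1, against 621 to 4019 of all genes.

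The factors that assemble ribosomes were set beside the ribosomal protein genes in the same contrasts. Of 40 ribosome biogenesis factors, 29 rose with LPS in Ctrl (median 0.84), against 10.8% of all genes. With LPS in GW 21 rose (median 0.64), against 4.45% of all genes, a contrast in which 0 ribosomal protein genes passed. For LPS in GW-CBD edgeR called 0 of 40 (median 0.05), and it also called 0 of 80 ribosomal protein genes (median 0.68). It gave 6 of 40 biogenesis factors an unadjusted p under 0.05, near the share of all genes (1821 of 16554). Of these factors DESeq2 called 0 and voom 2 higher and 5 lower (against 12.5% and 10.3% of all genes). Wdr12, which helps to mature the large subunit, averaged 35.5 ± 5.35 CPM in GW-CBD-LPS, 29.4 ± 1.78 in GW-CBD-PBS, 56.6 ± 5.55 in GW-LPS, 33.9 ± 2.85 in GW-PBS, 64.5 ± 11.9 in Ctrl-LPS and 29.6 ± 3.05 in Ctrl-PBS (SD, n = 3 or 4). Its log2 fold change was 1.12 ± 0.14 for LPS in Ctrl (edgeR adjusted p = 9.26e-06). Nop56, a core protein of the box C/D particles that modify ribosomal RNA, had 0.98 ± 0.13 for LPS in Ctrl (edgeR adjusted p = 2.42e-05) and 0.79 ± 0.14 for LPS in GW (edgeR adjusted p = 0.00131).

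For GW-CBD-LPS against GW-LPS, 11 of 40 biogenesis factors fell (median −0.51), against a median of 0.02 for ribosomal protein genes. Of all genes 1.24% were called lower and 1.06% higher. In the same contrast 3 of 10 microglial markers (Gpr34, Siglech and P2ry12, median of the list 0.51) and the B cell marker Cd79b were higher and the border-associated macrophage marker Cd163 was lower, and their part in the result was not tested. Gnl3, a nucleolar GTP-binding protein, had −1.05 ± 0.17 (edgeR adjusted p = 0.00264) and Grwd1, whose yeast counterpart is a chaperone of Rpl3, had −0.76 ± 0.16 (edgeR adjusted p = 0.0117). The count was 1 without GW-CBD-LPS replicate 1, 3 without GW-CBD-LPS replicate 3, 7 without GW-CBD-LPS replicate 4 and 0 in a fit of these groups alone, and leaving out GW-LPS replicate 3 or 4 gave 3 or 2. Over all fits with 1 library left out, the count ran from 1 to 15. For LPS in GW the number that rose ran from 12, without GW-LPS replicate 4, to 25. The share of all genes called in these fits is not given, so a general change in calls cannot be told apart. The difference between the list medians was not tested.

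Of 28 translation factors, 19 rose with LPS in Ctrl (median 0.64), against 10.8% of all genes. Among them were Eif3a (0.76 ± 0.12, edgeR adjusted p = 0.000192) and Eif4a1, the helicase that unwinds messengers (0.84 ± 0.15, edgeR adjusted p = 0.000473). With LPS in GW 4 rose (median 0.11, 4.45% of all genes), among them Eif3b (0.81 ± 0.21, edgeR adjusted p = 0.0171). With 1 library left out the count ran from 0, without GW-PBS replicate 1, to 6. Without the 3 neutrophil-marked libraries 15 rose with LPS in Ctrl (median 0.49, 7.11% of all genes) and 1 with LPS in GW (2.9%). For LPS in GW-CBD edgeR called 0 (median 0.22), with 6 of 28 at an unadjusted p under 0.05, against 1821 of all 16554 genes. DESeq2 called 1 higher (1.79% of all genes) and voom 5 higher and 2 lower (12.5% and 10.3%).

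**Figure D5:**
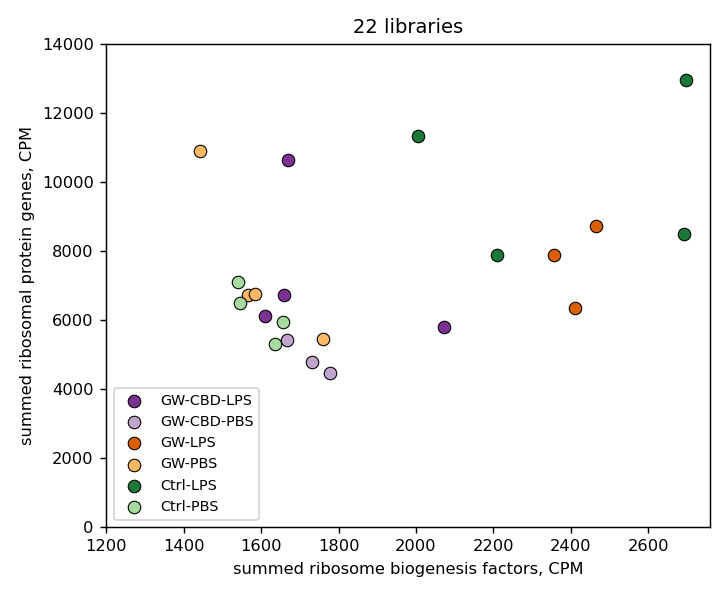
Summed CPM of ribosomal protein genes against summed CPM of 40 ribosome biogenesis factors, 1 point per library, coloured by group. The x axis starts at 1200 CPM. GW-PBS 1 and GW-CBD-LPS 4 have high ribosomal protein sums (10898 and 10643 CPM) at low biogenesis sums (1442 and 1671 CPM), and the GW-LPS libraries have high biogenesis sums (2356 to 2464 CPM).

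Of 26 genes that control translation 24 were tested, and for LPS in Ctrl 5 rose and 2 fell, against 10.8% of all genes called higher and 9.62% lower, so the number that fell is near the background. Myc, a transcription factor that drives the synthesis of ribosomes, averaged 75.7 ± 17.4 CPM in GW-CBD-LPS, 65.1 ± 3.58 in GW-CBD-PBS, 152.4 ± 65.9 in GW-LPS, 83.1 ± 15.2 in GW-PBS, 206.7 ± 44.7 in Ctrl-LPS and 65.7 ± 9.07 in Ctrl-PBS (SD, n = 3 or 4). Its log2 fold change was 1.65 ± 0.22 for LPS in Ctrl (edgeR adjusted p = 2.33e-05), 0.88 ± 0.23 for LPS in GW (edgeR adjusted p = 0.0199) and −1.01 ± 0.23 for CBD under LPS (edgeR adjusted p = 0.0213). Larp1, which binds the pyrimidine run of these messengers, rose with LPS in GW (0.68 ± 0.19, edgeR adjusted p = 0.0296) and in Ctrl (0.71 ± 0.18, edgeR adjusted p = 0.00771).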

How the data were processed

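The deposited table gives whole-number read counts per gene for 22 libraries, 1 column each, and all columns were used. Per the labels, poly(A)-selected stranded libraries (RNA integrity number 8.5 or more) were sequenced as 150-base pairs. The build is GRCm38 (mm10), per the submitters' processing notes, while aligner, counter, annotation and use of strand in counting are not given in the sources used. Reads of overlapping genes and near-identical copies may therefore be split in unknown ways. Symbols that had turned into dates were restored for 27 genes.

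Counts were tested in R 4.3.3 with edgeR 4.0.16: TMM factors, genes kept by filterByExpr (16554, among them 80 of the 83), 1 quasi-likelihood fit over 6 group means, 9 contrasts, two-sided, Benjamini-Hochberg adjustment over all genes tested. "Called" means an adjusted p under 0.05. CPM of single genes uses TMM factors, and sums use library totals. Standard errors come from the log2 fold change and its F statistic. Alternatives were RLE factors, no filter, DESeq2 1.42.0, limma 3.58.1 voom with quality weights, a replicate block, only the groups compared, and fits without 1 or 3 libraries. A length trend offset (lowess, span 0.2) was chosen after seeing the data. Transcript lengths, coordinates and copies came from GENCODE M21, and start sites from RefSeq. The length of a gene is that of 1 chosen transcript. Protein-coding transcripts came first, then those marked principal by APPRIS, then those of the basic set, and the longest among equals. Figures were drawn with matplotlib 3.10.9.

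The genes, lists and tests were chosen with earlier results of these data known. Named genes were the 6 called members with the smallest p in each contrast, or the 3 with the smallest p where none was called, a fixed set of index members, the 5 highest and 5 lowest levels per kilobase, and called genes of the other lists by smallest p. Rpl12, Rpl21, Rpl35 and Rpl39 in LPS in Ctrl, Rps12, Rpl7a, and the lists' genes given outside their contrast were named after their values were seen. Some genes that this rule names are not reported here.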

Additional observations from a re-analysis of the deposited data

Results flagged for a closer look

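In groups of 4 libraries, 16 of 112 tests (28 quantities in 4 groups) had 1 library further from the others than Dixon's 95% limit allows, where chance gives about 1 in 20. The flags come from 3 libraries and the quantities are not independent, since single libraries were high across nearly all ribosomal protein genes. Values are CPM.

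GW-PBS replicate 1 stood above the other GW-PBS libraries in 8 genes. It had 110.7 for Rpl11 (39.15 to 50.55 in the others), 106.7 for Rpl37a (38.33 to 43.95) and 170 for Rpl41 (67.57 to 83.4). It had 225.1 for Rplp1 (83.22 to 101.8), 119.8 for Rplp2 (46.49 to 58.02) and 51.64 for Rps26 (17.68 to 23.33). It had 102.4 for Rps27 (35.3 to 46.61) and 148.4 for Rps29 (46.81 to 64.04).

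GW-CBD-LPS replicate 4 stood above the other GW-CBD-LPS libraries in 7 genes. It had 138 for Rpl14 (70.94 to 79.61 in the others), 449.8 for Rpl4 (283.3 to 307.4) and 168.4 for Rpl41 (69.43 to 82.44). It had 220.8 for Rpl5 (128.3 to 142.2), 169.2 for Rpl6 (94.46 to 98.06) and 219.4 for Rplp1 (97.41 to 117). It had 260.6 for Rps6 (148.5 to 165.1).

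Ctrl-PBS replicate 1 had 10.66 for Rpl38, below 14.02 to 14.41 in the other Ctrl-PBS libraries.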

How the results depend on the processing

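For LPS in Ctrl, the count of members called was 19 leaving out all 3 neutrophil-marked libraries and 11 to 59 when 1 library was left out. For LPS in GW it was 0 by edgeR, 1 by DESeq2, 6 by voom, 1 without the 3 libraries, 8 with the length trend offset and 0 to 1 with 1 library left out. For LPS in GW-CBD it was 0 by edgeR, 1 with no filter, 12 by DESeq2, 57 by voom, 4 without the 3 libraries, 9 with the length trend offset and 0 to 1 with 1 library left out. By voom it was 2 for GW against Ctrl under LPS, 20 for CBD under PBS, 12 for CBD under LPS and 6 for the CBD by LPS interaction, all 0 by edgeR, and with the length trend offset 1 for CBD under LPS. With that offset the median log2 fold change was 0.32 for LPS in GW-CBD, −0.19 for GW against Ctrl under LPS, −0.34 for CBD under PBS, −0.33 for the interaction of GW and LPS and 0.19 for that of CBD and LPS. Without the 3 libraries the interaction of GW and LPS had a median of −0.43, and by voom that of CBD and LPS had 0.33. By voom the median of LPS in GW was 0.22 and that of CBD under LPS −0.28.

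The log2 difference of large to small subunit, as the mean log2 CPM of large minus small members, was 0.0272 for LPS in Ctrl, 0.0529 for LPS in GW and −0.0117 for CBD under LPS. Without the highest member of each subunit it was −0.0612 for LPS in Ctrl and −0.12 for LPS in GW-CBD. Rps27 for LPS in Ctrl was −0.0077 with no filter, −0.026 with the block, −0.00418 with only its groups, −0.064 without the 3 libraries, from −0.13 (without Ctrl-LPS replicate 4) to 0.144 (without Ctrl-LPS replicate 2) with 1 library left out, and −0.37 with the length trend offset. Rps4l for CBD under LPS was −0.27 by voom. The cause of these shifts was not tested.

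No consistent pairing by replicate number was seen: over 51 same-numbered pairs the correlation of deviations ran from −0.71 to 0.79 (median −0.00, 21 over 0.1). The median was 0.02 in the other pairs. With so few libraries in a group, this check cannot exclude pairing. With the replicate block 36 members were called for LPS in Ctrl and 0 in the other contrasts, and the medians were 0.04 for LPS in GW and −0.10 for CBD under LPS. Of the alternatives for counts, medians, sums and subunit differences, 417 moved by less than the limits set (the spread between libraries, or 1.5 times a count), 32 by more and 2 by more with a turned sign. The median turned sign in 11 of 152 alternatives, 6 for LPS in GW and 5 for CBD under LPS.

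The limits are few libraries, 3 or 4 in a group, and their spread, with a common biological coefficient of variation of 0.352. In addition, 5 members had under 100 counts in every library.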

Other observations

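Other lists were measured beside the ribosomal protein genes. Of 15 immediate early genes, 3 rose with LPS in Ctrl (Dusp1, Ier2 and Zfp36), against 10.8% of all genes called higher. With LPS in GW 1 of the 15 rose (Dusp1), a share near the 4.45% of all genes called higher. Of 10 tested mitochondrially encoded messengers, 1 rose with LPS in Ctrl (mt-Nd6), a share near the 10.8% of all genes called higher. In the other contrasts edgeR called 0 of these 10, with 0 to 2 at an unadjusted p under 0.05, against 621 to 4019 of all 16554 genes. Their medians were 0.44 for LPS in Ctrl, −0.20 for LPS in GW, 0.19 for LPS in GW-CBD and −0.39 for CBD under PBS, the same signs as those of the ribosomal protein genes. For CBD under LPS the signs differed, at −0.022 against 0.02 for the ribosomal protein genes. In the remaining contrasts they were the same. Of 4 nuclear retained RNAs edgeR called 0, with 0 to 1 at an unadjusted p under 0.05, against 621 to 5539 of all 16554 genes.

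Summed markers of border-associated macrophages ran from 218 to 599 CPM over the 22 libraries, monocytes from 8.02 to 1825 (the highest in Ctrl-PBS replicate 3), B cells from 204 to 1122, T and NK cells from 0 to 26.3, astrocytes from 155 to 279, oligodendrocytes from 240 to 613, neurons from 1.49 to 7.14 and endothelial cells from 16.5 to 62.5. Their part in the results was not tested.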
